A study of Mus musculus with 10 samples.

Results

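The proteasome genes of the mouse, whose symbols run from Psma to Psmg, were followed in ribosome-bound RNA of midbrain dopaminergic neurons after acute restraint. Members were chosen by symbol, without pseudogenes and predicted gene models: 49 genes of the 56691 in the deposited count table matched, and the 48 with at least 10 counts in 5 or more of the 10 libraries were kept. Just inside that limit stood Psma8, an alpha subunit known from the testis, with at least 10 counts in 6 libraries. Just outside stood Psmb11, the thymic beta subunit, with at least 10 counts in 1 library. All 48 kept genes also passed the filter on low counts of the test across the table, which kept 18440 genes.

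The libraries came from the ventral tegmental area of male C57BL/6 mice of wild-type genotype, per the labels and the design text, 5 without restraint (control) and 5 after 30 min of acute restraint stress (restraint). In every library, controls included, the RNA was enriched for messages bound to ribosomes, through the tagged construct NBL10-HA that the dopaminergic neurons expressed. The driver of its expression, the age of the mice and how many mice stand behind a library are not given in the sources used here, so p-values measure the spread between these libraries, which may be technical. The series states its purpose as a search for signalling changes in these neurons under acute restraint.

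The proteasome is the cell's main machine for breaking down proteins tagged with ubiquitin. Its core is a barrel of stacked rings: outer alpha rings guard the entrance, and inner beta rings hold the catalytic subunits encoded by Psmb5, Psmb6 and Psmb7. A regulatory cap with a ring of ATPases binds ubiquitin chains, unfolds the substrate and feeds it in. Under interferon the products of Psmb8, Psmb9 and Psmb10 take the place of these catalytic subunits and form the immunoproteasome. In neurons, degradation by the proteasome is known to take part in synaptic remodelling.

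Total counts ran from 56082358 to 86584968 per library, and members summed over all libraries from 148 counts (Psma8) and 1218 (Psme2b) to 232218 (Psmc5). The library restraint 1 stood apart from the other 9 on the first principal component, which held 22.6% of the variance. Summed markers of dopaminergic neurons were 1964 to 2689 CPM in controls and 2187 to 3033 CPM after restraint, with none of the 12 at 0. Of these 12 markers 10 had a positive log2 fold change, 6 at an unadjusted p under 0.05 (edgeR), as 5.64% of all genes tested had on the higher side, and their part in the members' values was not tested. Astrocyte markers were present too, at 5306 to 6118 CPM in controls and 5810 to 6948 CPM after restraint. Oligodendrocyte markers summed to 1617 to 1969 CPM in controls and 1538 to 2145 CPM after restraint. The sums were 1135 to 1491 and 1310 to 1643 CPM for GABA neuron markers. For glutamate neuron markers they were 415 to 447 and 358 to 487 CPM. In bulk RNA, fewer cells of a type and less RNA per cell cannot be told apart.

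The restraint libraries all had lower levels of the beta ring's 3 catalytic genes than any control, and for 1 of these genes, Psmb7, the difference passed the test across all genes. Genes of the regulatory cap had fold changes on both sides of 0. Of the 48 members, 32 had a negative log2 fold change (restraint minus control), against 50.4% of all genes tested, and the median was -0.12 against -0.00 for all genes. Only Psmb7 fell past the threshold (1 of 48 members) of edgeR's quasi-likelihood test (Benjamini-Hochberg adjusted p under 0.05 over all genes); 0.0163% of all genes fell and 0.00542% rose. No member rose. At an unadjusted p under 0.05, 16 members were lower and 1 was higher, where 6.04% and 5.64% of all genes were. DESeq2, a second test on the same counts, called 6 members lower and 0 higher; it called 1.6% of the genes to which it gave an adjusted p lower and 1.16% higher. In 5 members (Psmb5, Psmb6, Psmb7, Psma6 and Psmc2) every restraint library lay below every control library, as in 1.36% of all genes tested, and in 0 members above, as in 1.25%.

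**Figure D1:**
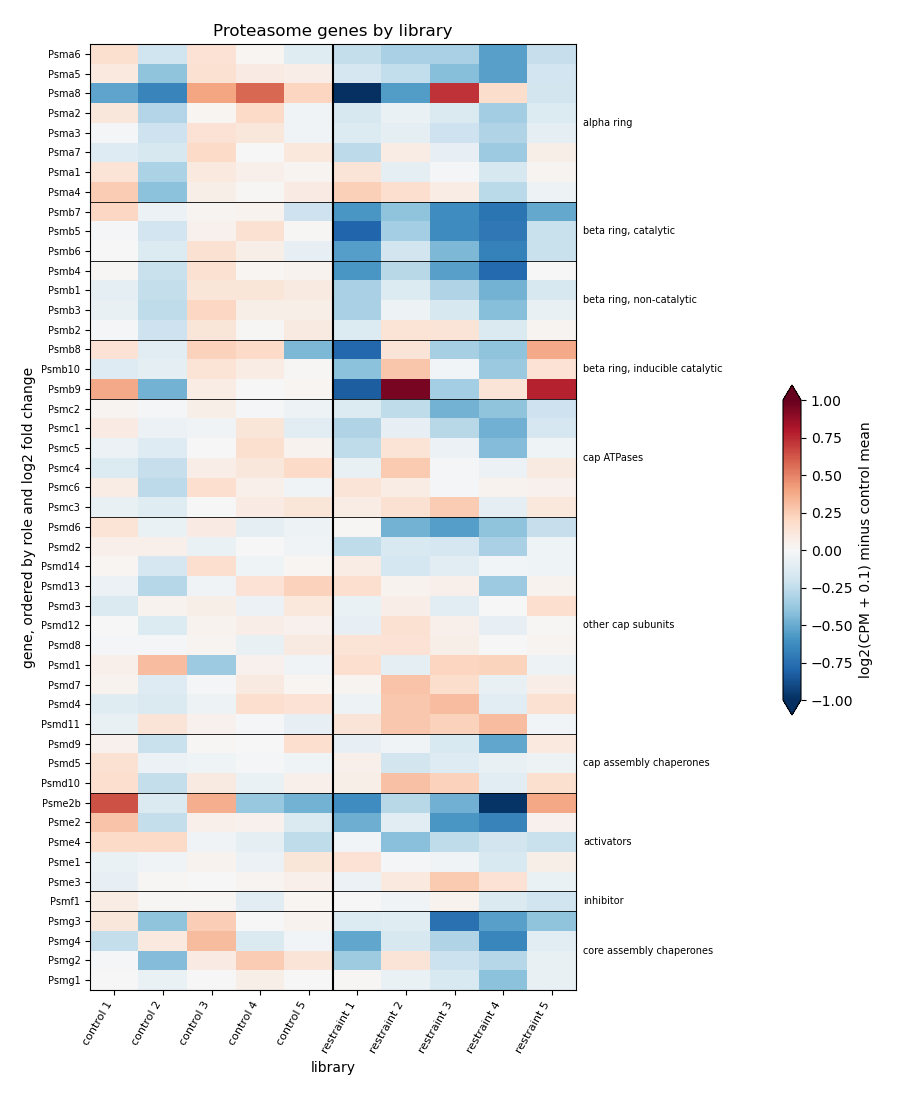
Level of the 48 proteasome genes (rows, grouped by role) in the 5 control and 5 restraint libraries (columns), as log2(CPM + 0.1) minus the mean of the controls, with colours clipped at 1 and -1. Blue cells gather in the rows of Psmb7, Psmb5 and Psmb6 on the restraint side, and in the column of restraint 4, which was the lowest library for 20 of the 48 genes.

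By place in the complex, the core (Psma and Psmb, 18 genes) had 15 negative log2 fold changes and a median of -0.19. The cap (Psmc and Psmd, 20 genes) had 9 negative ones and a median of 0.01. Within the core the 7 constitutive beta genes had a median of -0.41, the 8 alpha genes -0.17 and the 3 inducible beta genes -0.06. The 4 core assembly chaperones had a median of -0.26, the 5 activators -0.23 and the 3 cap assembly chaperones -0.08. These medians are descriptions, and no test of one role against another was made.

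The 3 constitutive catalytic genes each separated the groups, and Psmb7 and Psmb5 had the lowest log2 fold changes of all members. The 3 are Psmb5, the chymotrypsin-like subunit (ENSMUSG00000022193.8, chr14:54851576-54855479, minus strand), Psmb6, the caspase-like subunit (ENSMUSG00000018286.7, chr11:70416193-70418684, plus strand), and Psmb7, the trypsin-like subunit (ENSMUSG00000026750.7, chr2:38478048-38534099, minus strand), all in GRCm39. Proteasome genes are known targets of the transcription factors encoded by Nfe2l1 and Nfe2l2, which bind antioxidant response elements. RefSeq promoter windows (250 bases before to 50 after a start site, GRCm38.p6) matched 40 of the 48 members by symbol, Psmb5 and Psmb6 among them. Psmb7 had no window. The core letters TGACNNNGC, searched on both strands, occurred in the windows of 6 members, 15% of the 40, against 13.99% of all 27025 genes with a window. The 6 were Psmb5, Psmb6, Psmc6, Psmd9, Psmd12 and Psme4. Psma6 and Psmc2 also separated the groups, and their windows held no match. A link between the match and the lower levels was not tested. The 250 bases before the start sites of Psmb5 (chr14:54617996-54618245, minus strand) and Psmb6 (chr11:70525107-70525356, plus strand) are shown because these genes both separated the groups and held the match. Capitals mark the match.
Psmb5: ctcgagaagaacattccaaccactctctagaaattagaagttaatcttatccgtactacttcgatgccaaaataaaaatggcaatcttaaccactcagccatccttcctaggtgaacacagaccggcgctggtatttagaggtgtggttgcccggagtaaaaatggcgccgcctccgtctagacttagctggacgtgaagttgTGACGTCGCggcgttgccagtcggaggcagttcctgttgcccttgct
Psmb6: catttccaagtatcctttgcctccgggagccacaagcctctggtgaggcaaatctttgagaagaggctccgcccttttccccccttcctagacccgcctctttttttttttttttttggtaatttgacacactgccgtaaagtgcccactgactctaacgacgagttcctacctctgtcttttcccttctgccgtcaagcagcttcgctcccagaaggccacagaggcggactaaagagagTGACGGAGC
The match began 47 bases before the start site in Psmb5 and 9 bases before it in Psmb6. The share among members was close to that among all genes. CCAAT, the motif of the factor NF-Y, occurred in the windows of 13 members, 32.5%, against 41.1% of all genes.

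Psmb7 fell to 67.3% of its control level. Its normalized CPM was 113, 94.2, 99.6, 100.3 and 85.0 in controls 1 to 5 and 65.4, 74.2, 63.7, 59.0 and 68.9 in restraint libraries 1 to 5. The highest restraint library lay below the lowest control, control 5. The control mean was 98.4 ± 10.2 (SD, n = 5) and the restraint mean 66.3 ± 5.70 (SD, n = 5), and the log2 fold change was -0.57 ± 0.09 (SE; edgeR quasi-likelihood, Benjamini-Hochberg adjusted p = 0.0444). Of its exon bases 11.8% overlap exons of Nek6, a kinase gene on the opposite strand, and reads in that overlap were assigned to neither gene. Nek6 had 25.0 to 30.1 CPM in controls and 26.9 to 36.6 after restraint, with a log2 fold change of 0.13 ± 0.10. The call on Psmb7 was lost in 7 of the 10 fits that each left out 1 library, with fold changes from -0.63 to -0.51 and adjusted p-values (edgeR) from 0.0136 to 0.173. These 7 were the fits without control 1, 2, 3 or 4 and without restraint 1, 3 or 4. Without restraint 1, the library that stood apart, the log2 fold change was -0.56 and the adjusted p (edgeR) was 0.0854. With robust estimation of the spread in edgeR the adjusted p was 0.0591.

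Psmb5 had the next smallest p of the members. In controls 1 to 5 it measured 110.5, 97.9, 115, 124 and 113 CPM, and in restraint libraries 1 to 5 64.7, 88.3, 72.4, 68.0 and 95.7 CPM. Restraint 5, the highest of its group, was still under control 2, the lowest control. The log2 fold change was -0.53 ± 0.11 (edgeR quasi-likelihood, Benjamini-Hochberg adjusted p = 0.0750), which missed the threshold of 0.05 and passed 0.1, as did 0.266% of all genes on the lower side and 0.0922% on the higher; with Psmb7 that made 2 members lower and 0 higher at 0.1. DESeq2 gave an adjusted p of 0.00101. Without restraint 5 the log2 fold change was -0.62 and the adjusted p (edgeR) 0.0136, where 0.443% of all genes were called lower. This was the 1 of the 10 fits leaving out 1 library in which Psmb5 passed. Over these fits its adjusted p (edgeR) ran from 0.0136 to 0.226. The exons of Psmb5 share 12.1% of their bases with Mir686, which had 0 counts in all libraries.

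Psmb6 measured 177, 160.5, 196, 184 and 167 CPM in controls 1 to 5. After restraint it measured 121, 156, 129, 110.2 and 151 CPM in libraries 1 to 5, and restraint 2 came closest to the lowest control. Its log2 fold change was -0.41 ± 0.10 (edgeR quasi-likelihood, Benjamini-Hochberg adjusted p = 0.125), past the threshold in DESeq2 (adjusted p = 0.0118) and not in this edgeR fit. In all 3 catalytic genes restraint libraries 1, 3 and 4 were the lowest and restraint 2 and 5 the highest of the group. The 4 annotated pseudogenes named after Psmb5, Psmb6 and Psmb7 held at most 6 counts each over all libraries. Reads that map to several places were not counted.

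**Figure D2:**
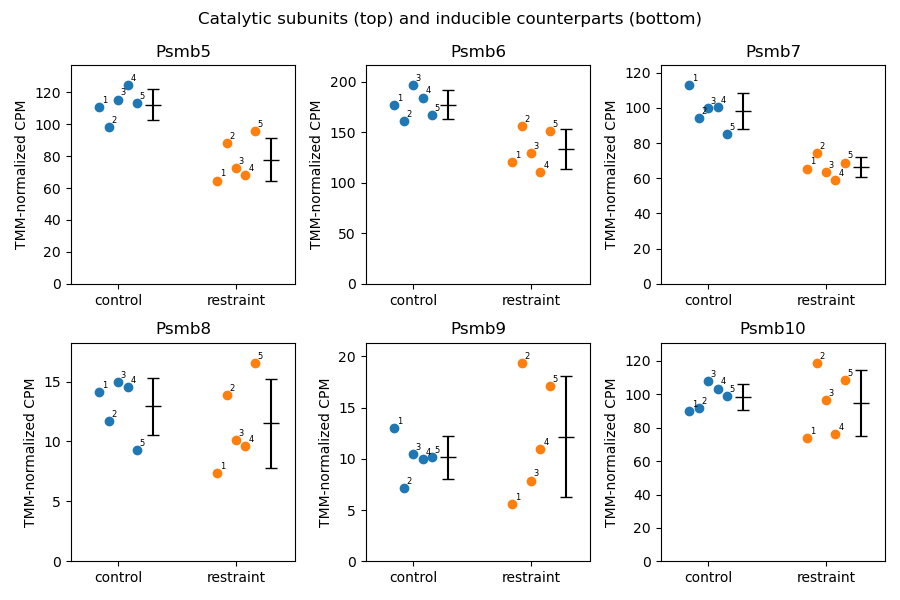
TMM-normalized CPM of the catalytic genes Psmb5, Psmb6 and Psmb7 (top) and of their inducible counterparts Psmb8, Psmb9 and Psmb10 (bottom) in each library, numbered by replicate, with the mean and SD of each group (n = 5) as black bars. The groups do not overlap in the top row and overlap in every panel of the bottom row.

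The non-catalytic beta genes did not all do the same. Psmb4, known as the last subunit to join the beta ring, measured 259, 219, 285, 260.0 and 263 CPM in controls 1 to 5 and 171, 211, 176, 149.6 and 258 CPM in restraint libraries 1 to 5. Restraint 5 lay inside the control range and the other 4 restraint libraries lay below it. The log2 fold change of Psmb4 was -0.41 ± 0.12, with an adjusted p of 0.188 in edgeR and 0.0368 in DESeq2. Without restraint 5 it was -0.55 with an adjusted p of 0.0262 (edgeR), where 0.443% of all genes were called lower in place of 0.0163%. This was the 1 of the 10 fits leaving out 1 library in which Psmb4 passed. Over these fits its adjusted p (edgeR) ran from 0.0262 to 0.400. Psmb1 had a log2 fold change of -0.28 ± 0.09, with 3 of 5 restraint libraries below the lowest control, and Psmb3 one of -0.21 ± 0.10, with 2 of 5. Psmb2 measured 74.0 to 92.8 CPM in controls and 77.0 to 93.6 CPM after restraint, and its log2 fold change of 0.00 ± 0.09 took either sign under the alternatives tried (lowest -0.04, highest 0.09).

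The inducible catalytic genes overlapped between the groups. Psmb8, the counterpart of Psmb5, measured 14.1, 11.7, 14.96, 14.5 and 9.28 CPM in controls 1 to 5 and 7.34, 13.9, 10.1, 9.59 and 16.6 CPM in restraint libraries 1 to 5. Psmb9, the counterpart of Psmb6, measured 13.03, 7.16, 10.5, 9.95 and 10.1 and 5.58, 19.4, 7.88, 10.9 and 17.1 CPM in the same order. Psmb10, the counterpart of Psmb7, measured 90.0, 91.7, 108, 103 and 99.1 and 74.0, 119, 96.4, 76.0 and 108 CPM. In all 3 genes restraint 1 was the lowest library of its group, and restraint 2 and 5 were the highest. The restraint libraries spread wider than the controls in each, as the SDs of Psmb9 show, 2.09 in controls and 5.91 after restraint. The log2 fold changes were -0.17 ± 0.19 for Psmb8, 0.26 ± 0.26 for Psmb9 and -0.06 ± 0.12 for Psmb10, with adjusted p-values (edgeR) from 0.765 to 0.917; 0 of the 3 had an unadjusted p under 0.05 or a DESeq2 call. Tap1, the peptide transporter gene beside Psmb9, shares 5.79% of the exon bases of Psmb9.

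The promoter of Psmb8 is shown as the example of an interferon-responsive member, since the letters TTCNNNGAA of the site that STAT factors bind (GAS), a palindrome that reads alike on both strands, occur in it once; capitals mark them in the 250 bases before the start site (chr17:34197945-34198194, plus strand, GRCm38.p6, RefSeq).
Psmb8: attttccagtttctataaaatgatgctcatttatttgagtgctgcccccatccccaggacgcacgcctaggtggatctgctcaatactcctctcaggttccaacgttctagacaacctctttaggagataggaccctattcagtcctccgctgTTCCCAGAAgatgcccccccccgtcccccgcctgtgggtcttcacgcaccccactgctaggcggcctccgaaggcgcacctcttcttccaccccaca
The match began 97 bases before the start site. The same letters occurred in the windows of 3 of the 40 members (Psmb8, Psmd2 and Psmg1), 7.5%, against 9.55% of all genes.

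The balance of inducible to constitutive subunit was taken as the log2 ratio of their CPM per kb of exon in each library. For Psmb10 to Psmb7 it was 0.68, 0.97, 1.12, 1.05 and 1.23 in controls 1 to 5 and 1.18, 1.68, 1.60, 1.37 and 1.66 in restraint libraries 1 to 5. Only restraint 1 lay within the control range. The mean was higher after restraint by 0.49 (two-sided exact permutation test over libraries, p = 0.0159, Benjamini-Hochberg adjusted over the 3 ratios p = 0.0476), but the ratio contains Psmb7 and is not independent of the call on that gene. Leaving out 1 library at a time gave differences from 0.41 to 0.57 and exact p-values, unadjusted, from 0.00794 to 0.0238. For Psmb8 to Psmb5 the difference was 0.34 (exact p = 0.0556, adjusted p = 0.0833) and for Psmb9 to Psmb6 0.56 (exact p = 0.103, adjusted p = 0.103). The smallest p that this exact test can give is 0.00794. Without restraint 1 the unadjusted exact p became 0.0159 for Psmb8 to Psmb5 and 0.0317 for Psmb9 to Psmb6, with differences of 0.42 and 0.77. Over all 10 fits that left out 1 library, the unadjusted exact p ran up to 0.127 and 0.214 for these 2 ratios.

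Markers of microglia, a cell type known for inducible subunits, were low and overlapped between the groups. The sum of the 12 was 31.1 to 47.0 CPM in controls and 30.0 to 43.6 CPM after restraint, and none was at 0 in all libraries. Markers of blood vessel cells summed to 15.4 to 21.2 CPM in controls and 18.1 to 27.2 CPM after restraint, with none of the 10 at 0 in all libraries. Their part in the levels of Psmb8, Psmb9 and Psmb10 was not tested.

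Of the 8 alpha ring genes 7 had a negative log2 fold change. None passed the edgeR test. At an unadjusted p under 0.05, 3 were lower, where 6.04% of all genes were, and DESeq2 called 1 lower, where it called 1.6% of all genes with an adjusted p. Psma6 (ENSMUSG00000021024.15, chr12:55431007-55465239, plus strand, GRCm39) separated the groups, with 170.1, 132, 167, 154 and 139 CPM in controls 1 to 5 and 128, 121, 122, 104 and 129.6 CPM in restraint libraries 1 to 5. Restraint 5 was just under the lowest control, control 2. Its log2 fold change was -0.33 ± 0.09, with an adjusted p of 0.162 in edgeR and 0.0299 in DESeq2. Psma5 had a log2 fold change of -0.32 ± 0.11 (edgeR, adjusted p = 0.237). Its level was 90.6, 64.2, 94.1, 89.8 and 88.7 CPM in controls 1 to 5 and 75.5, 71.4, 63.0, 58.0 and 74.1 CPM in restraint libraries 1 to 5. Control 2 was as low as the restraint libraries, and the other 4 controls were above all of them.

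Psma3 had 139 to 178 CPM in controls and 130.3 to 150.2 CPM after restraint, with a log2 fold change of -0.17 ± 0.08. Psma4, with the largest p of the alpha genes, had 102 to 162 CPM in controls, 113 to 161 CPM after restraint and a log2 fold change of 0.03 ± 0.11, which took the other sign without control 2, restraint 1 or restraint 2. Psma8, which takes the place of Psma7 in the testis, was near the limit of detection, at 0.125, 0.106, 0.327, 0.385 and 0.279 CPM in controls 1 to 5 and 0, 0.121, 0.437, 0.268 and 0.187 CPM in restraint libraries 1 to 5, and no difference was detectable at this depth. Psma1, Psma2 and Psma7 had log2 fold changes of -0.03 ± 0.09, -0.18 ± 0.09 and -0.11 ± 0.10.

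The ATPase ring of the cap, which unfolds substrates, was split: 3 of 6 genes had a negative and 3 a positive log2 fold change, with a median of -0.04. Psmc2 (ENSMUSG00000028932.9, chr5:21990281-22008785, plus strand, GRCm39) separated the groups, with 153, 149, 157, 148 and 145 CPM in controls 1 to 5 and 136, 126, 108, 114 and 130.0 CPM in restraint libraries 1 to 5. The controls lay close together and restraint 1 came nearest to them. Its log2 fold change was -0.29 ± 0.08, with an adjusted p of 0.162 in edgeR and 0.0285 in DESeq2. Psmc1 measured 241 to 282 CPM in controls and 185 to 245 CPM after restraint, with 4 of 5 restraint libraries below the lowest control and a log2 fold change of -0.26 ± 0.08 (edgeR, adjusted p = 0.219). Psmc5, the most abundant member per kb of deposited exon length, had a control mean of 356 ± 27.1 CPM and a restraint mean of 328 ± 48.5 CPM (SD, n = 5 for both), with a log2 fold change of -0.12 ± 0.10. Psmc3, Psmc4 and Psmc6 had log2 fold changes of 0.10 ± 0.08, 0.04 ± 0.09 and 0.05 ± 0.08, and their groups overlapped.

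The other 11 cap subunits had 4 negative and 7 positive log2 fold changes, with a median of 0.01. None passed the test in edgeR or DESeq2, and at an unadjusted p under 0.05 (edgeR) 2 were lower and 1 was higher, where 6.04% and 5.64% of all genes were. Psmd6, a scaffold subunit of the cap's lid, measured 98.3, 85.0, 94.5, 83.2 and 86.0 CPM in controls 1 to 5 and 89.9, 64.3, 60.8, 67.4 and 75.9 CPM in restraint libraries 1 to 5. Restraint 1 lay inside the control range and the other 4 lay below it, with a log2 fold change of -0.32 ± 0.10 (edgeR, adjusted p = 0.216). Psmd2, a large subunit of the base that docks shuttle factors, had 252 to 273 CPM in controls and 211 to 255 CPM after restraint, and a log2 fold change of -0.18 ± 0.07. Psmd11, a lid scaffold whose level is known to set proteasome activity in stem cells, was the 1 member on the higher side at an unadjusted p under 0.05. It measured 65.9, 75.9, 71.2, 68.1 and 65.4 CPM in controls 1 to 5 and 75.8, 83.7, 81.1, 85.6 and 67.7 CPM in restraint libraries 1 to 5. Its groups overlapped, since control 2 was above restraint 1 and 5, and its log2 fold change was 0.18 ± 0.08 (edgeR, unadjusted p = 0.0395, adjusted p = 0.396).

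Psmd14, the deubiquitinase that removes the ubiquitin chain, had a log2 fold change of -0.06 ± 0.08. Psmd4, a ubiquitin receptor, had one of 0.12 ± 0.10, and Psmd3, with the largest p of the cap subunits, one of 0.01 ± 0.08. The other 5 (Psmd1, Psmd7, Psmd8, Psmd12 and Psmd13) had log2 fold changes from -0.02 to 0.10. Of the 3 chaperones that assemble the cap, Psmd10 had 23.8 to 31.5 CPM in controls and 26.0 to 34.4 CPM after restraint, with a log2 fold change of 0.13 ± 0.10. Psmd9 and Psmd5 had log2 fold changes of -0.13 ± 0.11 and -0.08 ± 0.08. In all 3 the groups overlapped.

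**Figure D3:**
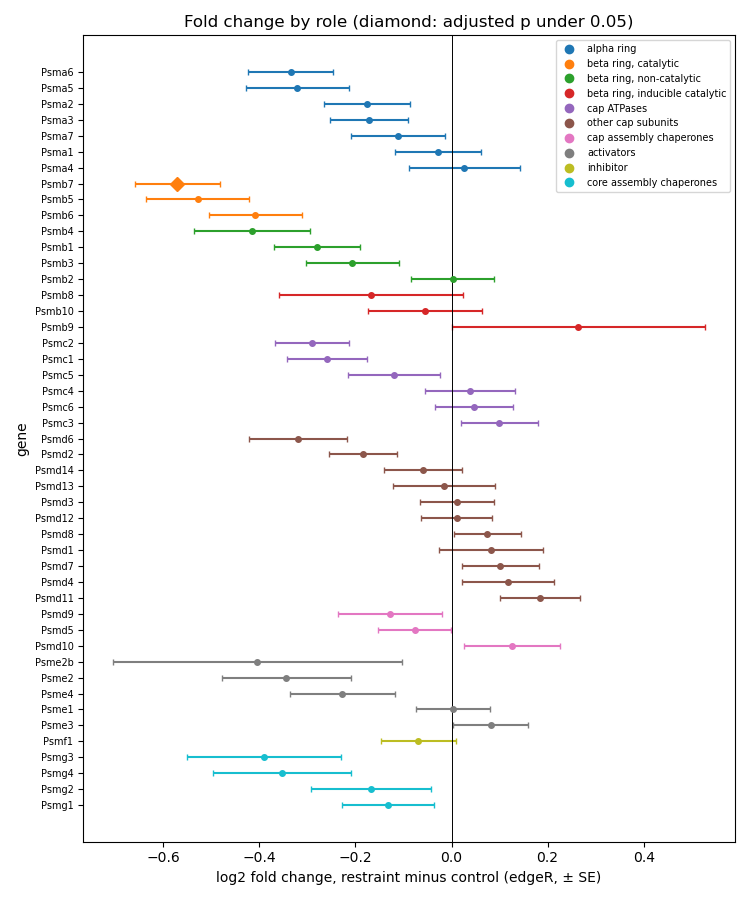
Log2 fold change of each proteasome gene (restraint minus control, edgeR, point and SE, n = 5 libraries per group), coloured by role, without Psma8, whose SE was 0.75. The diamond marks Psmb7 at -0.57, the 1 gene past the adjusted threshold; the beta ring genes reach furthest to the left and the cap subunits lie on both sides of 0.

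Among the activators, the alternative lids of the core, none passed the test in edgeR or DESeq2, and 1 was lower at an unadjusted p under 0.05 (edgeR), where 6.04% of all genes were. Psme1 and Psme2 encode the partners of the interferon-inducible PA28 ring. Psme1 measured 78.1 to 88.6 CPM in controls and 73.5 to 90.3 CPM after restraint, with a log2 fold change of 0.00 ± 0.08 that took either sign under other filters. Psme2 measured 60.8, 42.3, 51.7, 51.4 and 45.2 CPM in controls 1 to 5 and 35.6, 46.3, 33.3, 31.4 and 51.3 CPM in restraint libraries 1 to 5, with 3 of 5 restraint libraries below the lowest control. Its log2 fold change was -0.34 ± 0.13 (edgeR, unadjusted p = 0.0209, adjusted p = 0.317). The difference between the 2 partners was not tested. Psme2b, by its name a relative of Psme2 with which it may share reads, had 1.36 to 3.04 CPM in controls and 0.925 to 2.54 CPM after restraint and a log2 fold change of -0.40 ± 0.30. Psme3, the activator of the nucleus, had 117 to 129 CPM in controls, 119 to 149.5 CPM after restraint and a log2 fold change of 0.08 ± 0.08. Psme4, which encodes the large single-chain activator, had 16.5 to 22.6 CPM in controls, 14.8 to 19.3 CPM after restraint and a log2 fold change of -0.23 ± 0.11. The inhibitor Psmf1 had 46.9 to 53.4 CPM in controls, 44.1 to 52.0 CPM after restraint and a log2 fold change of -0.07 ± 0.08.

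All 4 chaperones that assemble the core had negative log2 fold changes. None passed the test in edgeR or DESeq2, and 2 were lower at an unadjusted p under 0.05 (edgeR), where 6.04% of all genes were. Psmg3 and Psmg4 encode the partners of a dimer that helps to form the alpha ring. Psmg3 measured 7.97, 5.52, 8.75, 7.35 and 7.54 CPM in controls 1 to 5 and 6.68, 6.75, 4.33, 5.00 and 5.54 CPM in restraint libraries 1 to 5, with a log2 fold change of -0.39 ± 0.16 (edgeR, unadjusted p = 0.0266, adjusted p = 0.341). Psmg4 measured 7.91, 9.99, 11.6, 8.42 and 9.14 and 6.49, 8.34, 7.55, 5.91 and 8.60 CPM in the same order, with a log2 fold change of -0.35 ± 0.14 (edgeR, unadjusted p = 0.0254, adjusted p = 0.339). In both the groups overlapped. Psmg1 and Psmg2, which encode the other chaperone dimer of the alpha ring, had log2 fold changes of -0.13 ± 0.10 and -0.17 ± 0.13.

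Levels between genes were compared per kb of exon, as the deposited table gives exon length over all annotated transcripts of a gene. On this length the highest in controls were Psmc5 at 255 ± 19.5, Psmc1 at 134 ± 9.03, Psmb4 at 132 ± 12.2, Psmb5 at 125 ± 10.7 and Psma6 at 124 ± 13.6 CPM per kb (mean, SD, n = 5). The 4 after Psmc5 lay within each other's spread. At the lower end were Psma8 at 0.0980 ± 0.0495, Psme4 at 2.37 ± 0.312, Psme2b at 2.41 ± 0.867, Psmg3 at 2.57 ± 0.413 and Psmb9 at 2.77 ± 0.570 CPM per kb, and the last 4 of these were within each other's spread. The median member stood at 39.98 CPM per kb in controls. Of the 48 members 15 share exon bases with another annotated gene, among them Psmd5 (15.3% of its bases), Psmd13 (10.1%, with Sirt3) and Psmc3 (8.25%, with Slc39a13), and reads in shared bases were not assigned. After restraint Psmb5 stood at 86.6 ± 15.01, Psmb4 at 99.0 ± 21.7 and Psma6 at 98.0 ± 8.32 CPM per kb, and Psmc5 at 235 ± 34.8 was again the highest on the deposited length.

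The order of the members depended on the length used. With the median length of the protein-coding transcripts in GENCODE M21, an alternative chosen after seeing the data, the highest in controls was Psmd2 at 399.6 ± 14.3 CPM per kb (SD, n = 5), against 65.2 ± 2.34 on the deposited length. This median takes in short transcript models. For Psmd2 it was 659 bases, against a deposited exon length of 4038 bases, so its first rank rests on a short length. Which length is nearer to the transcripts present was not tested. Psmc5 followed at 270.4 ± 20.6, then Psmb6 at 222 ± 17.8 and Psmb4 at 218 ± 20.1 CPM per kb, and these last 2 lay within each other's spread. Psmc1 moved to rank 10 of the 48 and Psmb5 to rank 11. Psme4, whose deposited exon length is 8382 bases and whose median transcript length is 657 bases, moved from 2.37 ± 0.312 to 30.2 ± 3.99 CPM per kb, above Psmb8 at 15.4 ± 2.84 and Psmb9 at 19.2 ± 3.95. Psma8, the testis counterpart in the alpha ring, was lowest on both lengths, at 0.180 ± 0.0909 CPM per kb on transcript length.

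The subunit pairs of the catalytic sites had unequal levels. In controls Psmb8 stood at 3.06% of Psmb5 per length, Psmb9 at 2.93% of Psmb6 and Psmb10 at 203% of Psmb7. On transcript length they were 10.4%, 8.64% and 89.4%. Psmb8 and Psmb9 were below their constitutive counterparts on both lengths, and the order of Psmb10 and Psmb7 differed between them.

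**Figure D4:**
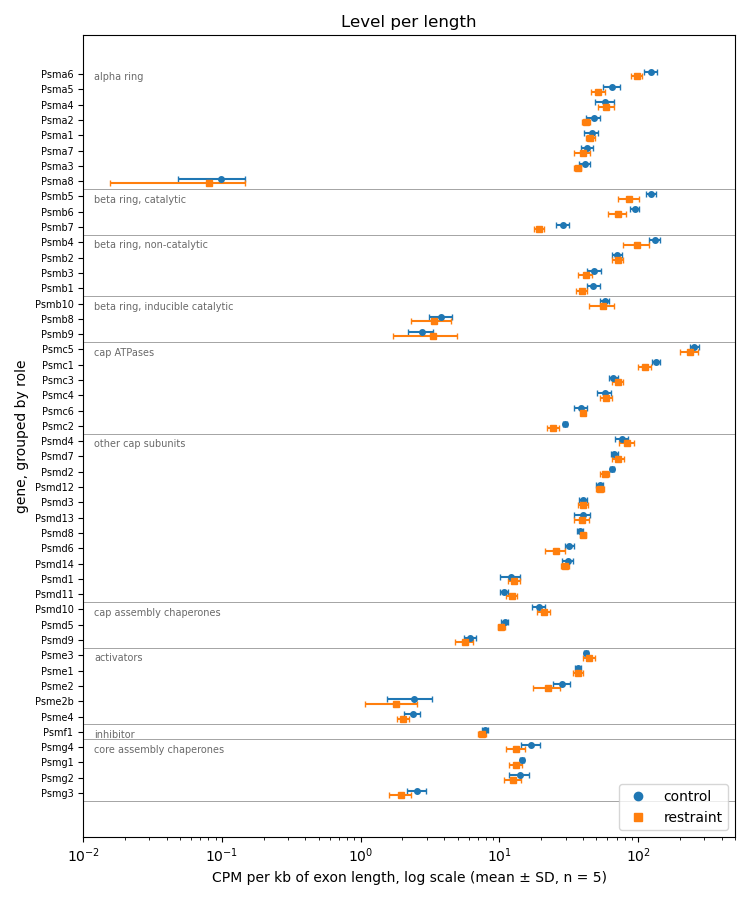
Level of the 48 proteasome genes per kb of exon in controls (circles) and restraint libraries (squares), mean and SD (n = 5 each), on a log axis, grouped by role. On this deposited exon length Psmc5 is highest, Psma8 is lowest at 0.0980 CPM per kb in controls, and Psmb8 and Psmb9 lie far below the other beta ring genes. On median transcript length Psmd2 ranks first, with a short median of 659 bases.

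Genes of the pathway outside the Psm symbols were taken from 9 lists with 73 genes tested, and none passed the edgeR test in either direction. At an unadjusted p under 0.05 (edgeR) 6 were lower and 12 higher, where 6.04% and 5.64% of all genes were. DESeq2 called 1 lower and 1 higher, where it called 1.6% and 1.16% of the genes with an adjusted p. The cap subunit genes Sem1 and Adrm1 had log2 fold changes of -0.38 ± 0.13 and -0.08 ± 0.08. Sem1 had 80.4, 63.9, 90.1, 85.9 and 61.3 CPM in controls 1 to 5 and 50.8, 68.5, 52.6, 49.9 and 70.9 CPM in restraint libraries 1 to 5, so the groups overlapped. Of 8 tested assembly and adaptor genes 4 had a negative fold change, among them Pomp, the chaperone of beta ring formation, at -0.29 ± 0.11 (edgeR, unadjusted p = 0.0172, adjusted p = 0.294). Ublcp1, a phosphatase gene of the nuclear proteasome, had all 5 restraint libraries above all 5 controls, as did 1.25% of all genes tested. Its log2 fold change was 0.20 ± 0.07 (edgeR, adjusted p = 0.290).

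Of the 12 regulators of proteasome genes, 7 had a negative fold change and the median was -0.03. Nfe2l2 had 24.0 to 35.6 CPM in controls, 29.6 to 39.0 CPM after restraint and a log2 fold change of 0.28 ± 0.12, and Nfe2l1 had a log2 fold change of 0.08 ± 0.09. Nfyc, a subunit gene of NF-Y, had one of -0.26 ± 0.11. Of the 4 ubiquitin genes, Rps27a, which encodes ubiquitin fused to a ribosomal protein, had 366, 230.3, 337, 318 and 277 CPM in controls 1 to 5 and 202, 230.3, 168, 141 and 259.7 CPM in restraint libraries 1 to 5. Control 2 lay among the higher restraint libraries. The log2 fold change was -0.61 ± 0.15, with an adjusted p of 0.130 in edgeR and 0.00442 in DESeq2. Without restraint 5 the adjusted p (edgeR) was 0.0333, where 0.443% of all genes were called lower. Over the 10 fits that left out 1 library it ran from 0.0333 to 0.345.

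The 17 tested activating and conjugating enzymes had a median of 0.03, the 12 genes of the p97 unfoldase and its cofactors -0.00, the 6 shuttle factors -0.11 and the 4 proteasome-bound deubiquitinases and ligases -0.07. The 8 interferon-induced genes of antigen processing, which work with the immunoproteasome, all had a positive log2 fold change, with a median of 0.31. The highest was Tap2, at 16.5, 11.7, 17.1, 17.5 and 17.7 CPM in controls 1 to 5 and 17.6, 24.9, 22.5, 21.8 and 24.3 CPM in restraint libraries 1 to 5, with a log2 fold change of 0.47 ± 0.13 and an adjusted p of 0.162 in edgeR and 0.0271 in DESeq2. Tapbp had a log2 fold change of 0.31 ± 0.10 (edgeR, adjusted p = 0.197). At an unadjusted p under 0.05, 4 of these 8 were higher, where 5.64% of all genes were.

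The mean level of the members went with a measure of the libraries, the length slope. For this slope, each gene's mean over all libraries was taken from its log2 CPM in a library. The remainder was fitted on log2 exon length over 8505 of the more abundant genes, without the members. The length slope was highest in restraint 4 (0.0965), restraint 1 (0.0671) and control 2 (0.0655). These 3 libraries also had the lowest mean level of the 48 members relative to the control mean, at -0.29, -0.24 and -0.16 on the log2 scale. The other 7 ranged from -0.14 to 0.08. Members have a shorter summed exon length per gene, with a median of 2804 bases against 3879 for all genes tested. After each library's length trend was removed, the log2 fold change was -0.57 ± 0.09 for Psmb7, -0.40 ± 0.08 for Psmb5 and -0.39 ± 0.07 for Psmb6, with adjusted p-values (edgeR) of 0.0130, 0.0330 and 0.0301, so all 3 catalytic genes passed the threshold. With the trend removed, 0.26% of all genes were called lower, and 32 of the 48 members had a negative fold change with a median of -0.10. Psma6 moved to -0.24 ± 0.08 and Psmg4 to -0.13 ± 0.12.

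**Figure D5:**
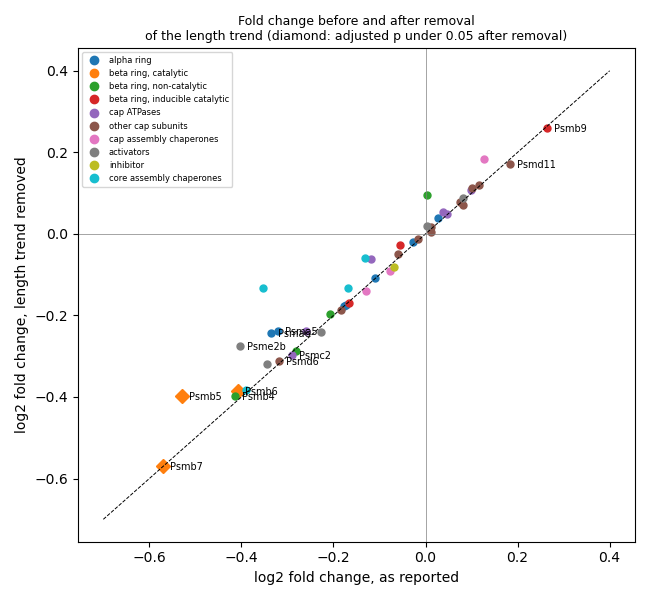
Log2 fold change (restraint minus control) of each proteasome gene as reported (x axis) and after removal of each library's trend with exon length (y axis), coloured by role, without Psma8. Diamonds mark the genes past the adjusted threshold after removal, Psmb5, Psmb6 and Psmb7; points above the dashed line of equality, such as Psmg4 and Psmb5, moved up.

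The share of even values among counts of 1 to 30, where both mates of a read pair are counted singly, was 76.8% to 79.8% in controls and 80.0% to 84.8% after restraint. This share separated the 2 groups of libraries, and its part in the members' values was not tested. Restraint 4 was the lowest library for 20 of the 48 members, 5 of them among the 7 constitutive beta genes, and control 2 for 11. Without control 2, 11 members in place of 5 separated the groups on the lower side, where 2.38% in place of 1.36% of all genes did. Without restraint 4 the median of the members was -0.06, and 10 in place of 16 were lower at an unadjusted p under 0.05, where 4.85% in place of 6.04% of all genes were.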

How the data were processed

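Ribosome-bound RNA was sequenced in 5 control and 5 restraint libraries, grouped by their labels. The deposited counts are whole numbers per gene, which featureCounts 2.0.3 made from exon reads and GENCODE M30 gene models, per the file headers. The recorded options count each mate, do not separate strands and leave out multi-mapping reads, per the file headers. The submitters' processing notes name Trimmomatic, FastQC and STAR as tools and mm10 as the build; gene coordinates are printed as the deposited table holds them (GENCODE M30, GRCm39). Symbols came from GENCODE M21 by gene identifier (52073 of 56691 genes).

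Genes were filtered with filterByExpr (count minimum 10, total minimum 15), normalized by TMM and tested with edgeR 4.0.16 (glmQLFit, glmQLFTest, group as the only term, R 4.3.3), with Benjamini-Hochberg adjustment over all 18440 genes and a threshold of 0.05. The SE came from the F statistic, and its median over genes was 0.136. CPM are TMM-normalized. Ratios were compared by exact permutation over libraries. A check of the edgeR test used counts simulated for 18002 genes from these libraries. It found 77% of 100 genes changed 1.5-fold and 99% of 100 changed 2-fold. Unchanged genes made up 3.3% of what it called. These shares describe the simulated counts and not recovery in the measured libraries, where 3 genes were called lower and 1 higher. Recovery was not tested separately for genes at low levels, such as Psma8 and Psme2b.

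Alternatives were other normalizations and filters, DESeq2 1.42.0, limma-voom 3.58.1, robust estimation, a replicate block, removal of each library's length trend (lowess, span 0.3), halved counts and leaving out each library. Members and lists were chosen with earlier results of these data known. Values are given for any member past the threshold, all beta ring catalytic, activator, inhibitor and core chaperone genes, the 3 smallest p-values and the largest of each other role, the extremes of level per length, up to 2 genes per list, and genes that overlap a called member; other genes named were chosen after their values were seen. A gene that this rule takes is not reported here. Intervals from counting error were not used, since the spread between libraries sets the error.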

Additional observations from a re-analysis of the deposited data

Results flagged for a closer look

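Each group of 5 libraries was screened for a library whose gap to the nearest other exceeded Dixon's critical value of 0.71 of the group's range. Of 102 groups examined, 5 met it, and chance alone gives about 1 in 20. Control 2 was low for 2 alpha ring genes: Psma5 measured 64.2 CPM there against 88.7 to 94.1 CPM in the other controls, and Psma1 measured 109 CPM against 139 to 149 CPM. Control 1 was high for the cap chaperone Psmd5, at 87.7 CPM against 75.8 to 78.3 CPM in the other controls. Restraint 4 was low for the cap subunit Psmd13, at 104 CPM, where the other 4 of its group had 137 to 149.9 CPM. Control 5 had a low log2 ratio of Psmb8 to Psmb5, at -5.52 against -5.01 to -4.86 in the other controls.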

How the results depend on the processing

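Psmb7 kept its negative fold change under every alternative run. The number of members called lower was 1 in edgeR and stayed 1 under RLE, upper quartile and library size scaling, a stricter filter (CPM of at least 1 in 5 libraries), a looser one (10 counts in 5 libraries), limma-voom and halved counts. It was 5 with genes of at least 1 count in any library, where 0.612% of all genes were called lower in place of 0.0163%. It was 6 in DESeq2 (1.6% of genes with an adjusted p), 3 with the length trend removed (0.26% of all genes), and 0, as for all genes, under robust estimation, under the replicate block and under the length trend removed with the replicate block. With the block, Psmb7 had an adjusted p (edgeR) of 0.298. Same-numbered libraries did not deviate together (correlations -0.164 to 0.0270, and 0 of 10 libraries correlated best with its own number), so the numbers were not taken as pairs. The paired sign flips of the ratio of Psmb10 to Psmb7 gave an exact p of 0.0625 with a difference of 0.49, the smallest p that 5 pairs allow. Leaving out 1 library at a time gave 0 to 3 members called lower and 5 to 11 without overlap on the lower side, where 0 to 0.443% of all genes were called lower and 1.65% to 3.3% did not overlap. The ratio of Psmb8 to Psmb5 then differed by 0.22 to 0.42 and that of Psmb9 to Psmb6 by 0.41 to 0.77. Fold changes near 0 changed sign. With library size only, Psmb2 was -0.0062 and Psme1 -0.0019. With at least 1 count in any library they were -0.0043 and -0.0017, with a CPM of at least 1 in 5 libraries -0.0067 and -0.0050, with 10 counts in 5 libraries -0.0032 and -0.0016, and with halved counts -0.0040 and -0.0023. Over the fits that left out 1 library, Psma4 ran from -0.057 to 0.10, Psma8 from -0.76 to 0.042, Psmb10 from -0.16 to 0.026, Psmb2 from -0.041 to 0.043, Psmc4 from -0.026 to 0.079, Psmd3 from -0.037 to 0.036 and Psme1 from -0.029 to 0.046. The cause of these changes was not tested. Depth limited Psma8, with 148 counts over all libraries. Psmb5, Psmb6, Psma6 and Psmc2 separated the groups and did not pass in the main edgeR fit. With genes of at least 1 count in any library, Psmb5, Psmb6 and Psma6 passed in edgeR. Psmb5 and Psmb6 also passed with the length trend removed, and Psmb5 without restraint 5. Psmc2 passed in none of the edgeR alternatives.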
